A study of Mus musculus with 37 samples.

Results

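The genes described here are 8 chemokine genes, Ccl3, Ccl4, Ccl5, Xcl1, Ccl1, Ccl9, Ccl6 and Cxcl10, out of 53700 genes counted in every library. They and the further gene lists below were picked by symbol, with earlier results of these data known. Each of the 8 symbols belonged to 1 Ensembl identifier. Their rows were read in all 37 bulk RNA-seq libraries of uterine natural killer (uNK) cells, the lymphocytes that gather in the pregnant mouse uterus. All libraries came from C57BL6 mice at gestation day 9.5 to 10.5. Live single cells had been sorted as positive for CD45 and NKp46, without T cell markers (CD3, CD4, CD8) or high CD11b, and then gated on the inhibitory receptors Ly49C/I and NKG2A. Binding of these receptors to self MHC class I is held to educate NK cells, so cells with neither receptor are called uneducated. WT mice gave 9 uneducated, 9 NKG2A+ (without Ly49C/I) and 6 Ly49C/I+ (without NKG2A) libraries. Mice labelled NKG2A KO gave 8 uneducated and 5 Ly49C/I+ libraries. Cells with both receptors were not collected. In NKG2A KO mice the uneducated and Ly49C/I+ gates can hold cells that would have carried NKG2A in a WT mouse. The labels do not say that the libraries came from separate animals, so p-values measure the spread between these libraries.

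Chemokines are small secreted proteins that guide leukocytes through G protein-coupled receptors. NK cells are known for releasing the CC chemokines CCL3, CCL4 and CCL5 and the XCR1 ligand XCL1 once activated, which draws monocytes, T cells and dendritic cells. In the pregnant uterus they act among macrophages, decidual stroma and invading trophoblast.

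The libraries held 13287163 to 18875033 reads on genes, with a median of 17273311. Levels are given in CPM, read counts scaled to a common number of reads on genes with TMM factors. All log2 fold changes and adjusted p-values come from edgeR's quasi-likelihood test with Benjamini-Hochberg adjustment over all genes tested in a comparison, and a gene is said to have risen or fallen where its adjusted p was under 0.05. The NK cell markers (10 of 10 detected in each group) summed to 13149 to 17637 CPM. Klrc1, which encodes NKG2A, lay between 494 and 760 CPM in the NKG2A+ libraries and at most at 13.8 CPM in every other library, WT or KO, so its level does not separate the genotypes in these gates. Klra9 (Ly49I) lay between 464 and 1136 CPM in the Ly49C/I+ libraries and at most at 123 CPM elsewhere, whereas Klra3 (Ly49C) had lower means in Ly49C/I+ than in uneducated cells (55.3 against 137 CPM in WT mice). Klra genes have close copies that may share reads. Of 10 T cell markers, Cd4, Cd8a, Cd8b1 and Cd5 stayed under 5 CPM in every library. The summed T cell list was higher in both educated populations, with 905 to 1535 CPM in WT uneducated, 1574 to 2181 CPM in NKG2A+ and 1691 to 1992 CPM in Ly49C/I+ libraries, carried mainly by Lck and the Trbc genes. In KO mice it was 1187 to 1728 CPM in uneducated and 1858 to 2056 CPM in Ly49C/I+ libraries. Dendritic cell markers of WT mice were instead highest in uneducated cells, with H2-Ab1 the most abundant of them. Their medians were 171, 67.4 and 90.3 CPM in uneducated, NKG2A+ and Ly49C/I+ libraries. Mast cell and basophil markers (medians of 40.4, 12.5 and 7.21 CPM) and Pecam1, which carried the endothelial list, were also highest in uneducated cells. Neutrophil markers summed to at most 46.7 CPM and B cell markers to at most 6.08 CPM in any library. Reads outside annotated features made up 2.9% to 4.47% in WT uneducated, 3.01% to 4.49% in NKG2A+ and 4.16% to 6.83% in WT Ly49C/I+ libraries, where 5 of 6 lay above the uneducated range. In KO mice they made up 2.69% to 5.67% in uneducated and 3.94% to 5.26% in Ly49C/I+ libraries. The part of these lists and reads in the chemokine differences was not tested. Fewer cells of a type and less RNA per cell cannot be told apart in bulk libraries.

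In GENCODE M21 (GRCm38), Ccl3 (chromosome 11, 83647844 to 83649355, minus strand), Ccl4 (83662584 to 83664683, plus strand), Ccl5 (83525778 to 83530518, minus), Ccl9 (83572919 to 83578636, minus) and Ccl6 (83587882 to 83593087, minus) lie in 1 cluster. Ccl1 lies outside this cluster, at lower coordinates of the same chromosome, and its principal transcript runs from 82176657 to 82179812 on the minus strand. Xcl1 is on chromosome 1 (164931644 to 164935527, minus) and Cxcl10 on chromosome 5 (92346638 to 92348889, minus). No stretch of 50 bases in 7 of the 8 genes recurred in a transcript of another gene. For Ccl9, 1.97% of such stretches did. Exons of Gm20743 overlap Xcl1 and exons of Art3 overlap Cxcl10 on the opposite strand. The sources used here do not say whether counting used the strand, so reads of such opposite pairs cannot be told apart.

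RefSeq (GRCm38.p6) upstream sequences were at hand for 6 of the 8 genes, all except Ccl4 and Ccl5. The 250 bases before the start are printed for Ccl3, Xcl1, Ccl9 and Cxcl10. Ccl3 moved together with Ccl4 and Ccl5. Xcl1 and Cxcl10 had higher means in Ly49C/I+ than in NKG2A+ cells of WT mice. Ccl9 had the largest log2 rises among the 8 in educated against uneducated cells. Capitals mark matches, on either strand, to a kappaB-like pattern (GGG, 5 bases of any kind, then CC, in 45.8% of 32851 upstream regions of this length), an AP-1 pattern (TGANTCA, 6.75%), an interferon-response pattern (GAAA, 2 bases of any kind, then GAAA, 2.98%) or a T-box pattern (AGGTGT, 11.8%).
Ccl3, chr11:83649379-83649628, minus strand: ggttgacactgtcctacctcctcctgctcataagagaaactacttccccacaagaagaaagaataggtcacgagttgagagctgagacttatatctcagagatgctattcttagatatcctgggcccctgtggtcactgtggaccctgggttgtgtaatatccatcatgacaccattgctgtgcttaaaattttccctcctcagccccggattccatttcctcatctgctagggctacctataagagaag
Xcl1, chr1:164935523-164935772, minus strand: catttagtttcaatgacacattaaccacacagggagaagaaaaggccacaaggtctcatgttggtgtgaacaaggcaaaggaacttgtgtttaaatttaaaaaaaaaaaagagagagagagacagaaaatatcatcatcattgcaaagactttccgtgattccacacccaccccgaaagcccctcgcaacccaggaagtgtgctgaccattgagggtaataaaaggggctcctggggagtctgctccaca
Ccl9, chr11:83578637-83578886, minus strand: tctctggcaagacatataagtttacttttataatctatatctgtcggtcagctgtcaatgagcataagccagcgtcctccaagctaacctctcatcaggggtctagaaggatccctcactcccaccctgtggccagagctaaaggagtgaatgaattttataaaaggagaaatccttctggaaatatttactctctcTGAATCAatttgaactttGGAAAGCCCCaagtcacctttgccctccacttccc
Cxcl10, chr5:92348890-92349139, minus strand: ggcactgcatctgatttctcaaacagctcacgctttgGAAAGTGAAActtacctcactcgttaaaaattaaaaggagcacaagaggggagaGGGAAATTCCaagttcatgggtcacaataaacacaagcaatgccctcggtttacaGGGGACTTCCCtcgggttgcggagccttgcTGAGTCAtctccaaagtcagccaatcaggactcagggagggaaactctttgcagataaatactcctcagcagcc

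The windows of Ccl3 and Xcl1 held none of these patterns. Cxcl10 held all but the T-box pattern, with the interferon-response pattern at -213 to -204, kappaB-like patterns at -159 to -150 and, overlapping one another, between -104 and -94, and the AP-1 pattern at -74 to -68, counted from the start. Ccl9 held the AP-1 pattern at -53 to -47 and a kappaB-like pattern at -35 to -26. A match is a description of letters and not a bound site.

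Per kilobase of principal transcript, Ccl5, Xcl1 and Ccl4 had the highest mean levels of the 8 genes in all 5 groups, followed by Ccl3. In WT uneducated cells the mean levels were 2066 CPM per kilobase for Ccl5, 1269 for Xcl1, 1052 for Ccl4 and 203 for Ccl3. Ccl1 (93.3) and Cxcl10 (89.6) were lower, and Ccl6 (4.28) and Ccl9 (1.79) lowest. On a TPM-like scale over union exon lengths, Xcl1 stood before Ccl5 in this group, and the mean levels of Xcl1, Ccl5 and Ccl4 ranked 23, 27 and 28 among all genes with a length. In KO Ly49C/I+ cells the same 3 genes ranked 9, 12 and 10. Ccl3 ranked 268 in the former group and 42 in the latter.

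**Figure D1:**
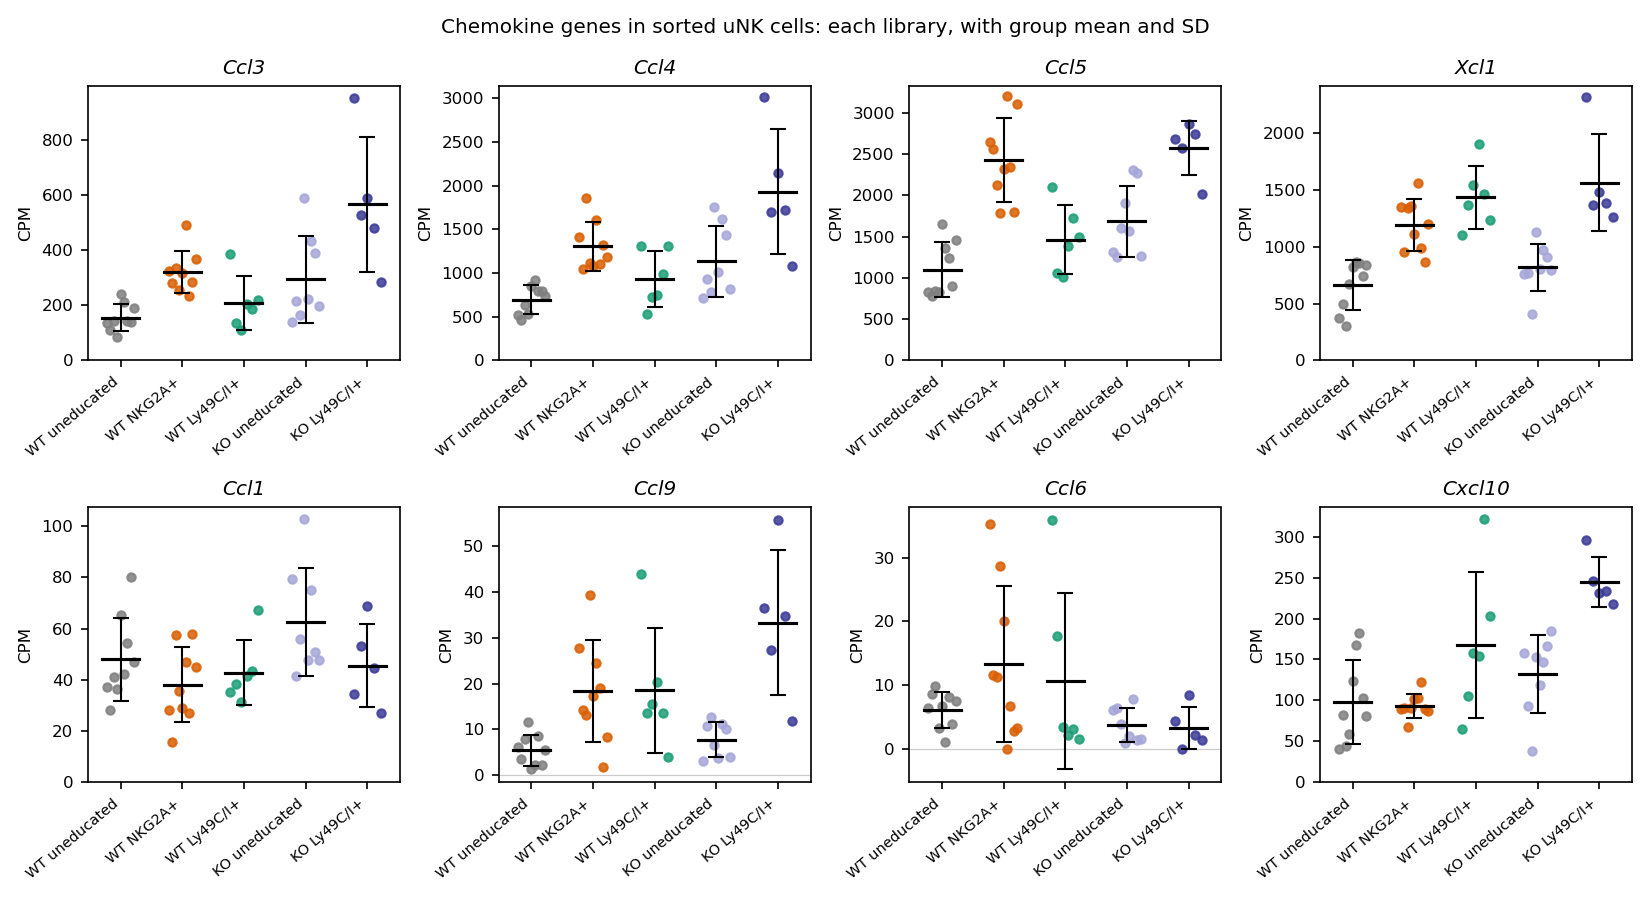
Level of each chemokine gene (y axis, CPM) in every library of the 5 groups (x axis, points), with the group mean (thick line) and SD (error bar). Ccl4, Ccl5 and Xcl1 in WT NKG2A+ libraries all lie above the WT uneducated libraries, and KO Ly49C/I+ library 4 is the highest of all for Ccl3, Ccl4 and Xcl1.

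NKG2A+ cells of WT mice were compared with uneducated cells to ask how education through NKG2A goes along with chemokine transcripts. Of the 8 genes, 5 rose (Ccl3, Ccl4, Ccl5, Xcl1 and Ccl9) and none fell, while 7.47% of 9339 genes tested rose. The median log2 fold change of the 8 was 0.98, against 0.01 over all genes tested. Because the 8 were chosen with earlier results of these data known, these contrasts with all genes are descriptions. For 3 of the 8 (Ccl4, Ccl5 and Xcl1) the lowest NKG2A+ library exceeded the highest uneducated one, as for 1.25% of all genes tested.

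Ccl3 encodes a ligand of CCR1 that attracts monocytes. In WT uneducated libraries it ranged from 86.8 to 243 CPM (median 142), and in NKG2A+ libraries from 234 to 494 CPM (median 317). Only uneducated library 5 reached into the NKG2A+ range, so the groups met at a single value. The log2 fold change was 1.05 (SE 0.169, adjusted p = 0.000197). Ccl4, which encodes a closely related chemokine, ranged from 463 to 920 CPM (median 735) in uneducated and from 1044 to 1858 CPM (median 1183) in NKG2A+ libraries, without overlap (0.91, SE 0.139, adjusted p = 0.00012). Ccl5, which encodes RANTES, an attractant of T cells and monocytes, gave 781 to 1656 CPM (median 899) against 1785 to 3201 CPM (median 2340), again without overlap (1.15, SE 0.157, adjusted p = 3.57e-05). The 3 genes thus stood about equally far apart between the populations on the log2 scale.

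Ly49C/I+ cells of WT mice, compared with the same uneducated libraries, had smaller differences in these genes, none past the threshold. Ccl3 lay between 110 and 388 CPM (median 196), Ccl4 between 531 and 1305 CPM (median 870) and Ccl5 between 1011 and 2105 CPM (median 1440), and every range overlapped that of uneducated cells. The log2 fold changes were 0.40 (SE 0.242, adjusted p = 0.32), 0.42 (SE 0.191, adjusted p = 0.184) and 0.40 (SE 0.19, adjusted p = 0.197). WT Ly49C/I+ library 1 was the highest of its group for Ccl3 and Ccl5, and without it the Ccl3 value was 0.14.

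The direct comparison of NKG2A+ with Ly49C/I+ cells asks whether the educated populations differ. Among the 8 genes 1 passed the threshold, Ccl5, which was higher in NKG2A+ cells (0.73, SE 0.158, adjusted p = 0.0168), where 2.73% of 9308 genes passed in either direction. The ranges of the 2 populations overlapped, at 1785 to 3201 against 1011 to 2105 CPM. With no filter on low counts the adjusted p of Ccl5 was 0.0529. Ccl3 (0.64, SE 0.215, adjusted p = 0.115) and Ccl4 (0.48, SE 0.178, adjusted p = 0.145) did not pass. Without WT Ly49C/I+ library 1, Ccl3 passed (0.91, adjusted p = 0.00839) and the count of the 8 genes past the threshold was 3.

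In NKG2A KO mice, Ly49C/I+ cells were set against uneducated cells of the same genotype. Of the 7 genes tested there 5 rose (Ccl4, Ccl5, Xcl1, Ccl9 and Cxcl10), where 7.34% of 9299 genes rose, and in 2 of them (Xcl1 and Cxcl10) the groups did not overlap, as for 2.32% of genes tested. Ccl3 was 954, 527, 590, 480 and 284 CPM in KO Ly49C/I+ libraries 4 to 8 and ranged from 141 to 590 CPM (median 221) in KO uneducated libraries, so the ranges overlapped (0.93, SE 0.316, adjusted p = 0.0537). Ccl4 was 3013, 1699, 2149, 1725 and 1079 CPM in those libraries, against 709 to 1754 CPM (median 973), and rose (0.75, SE 0.236, adjusted p = 0.0379). Library 4 was the highest of the KO Ly49C/I+ libraries for both genes. Ccl5 had 2683, 2569, 2860, 2738 and 2015 CPM against 1250 to 2308 CPM (median 1587), with only library 8 inside the range of uneducated cells (0.59, SE 0.147, adjusted p = 0.0123). The Ccl4 call was lost in 8 of 13 fits that each left out 1 library, with the lowest value (0.54, adjusted p = 0.148) without KO Ly49C/I+ library 4. Without that library 3 of the 7 genes rose, and without KO uneducated library 4, where Ccl3 also rose (1.15, adjusted p = 0.0117), 6 did.

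**Figure D2:**
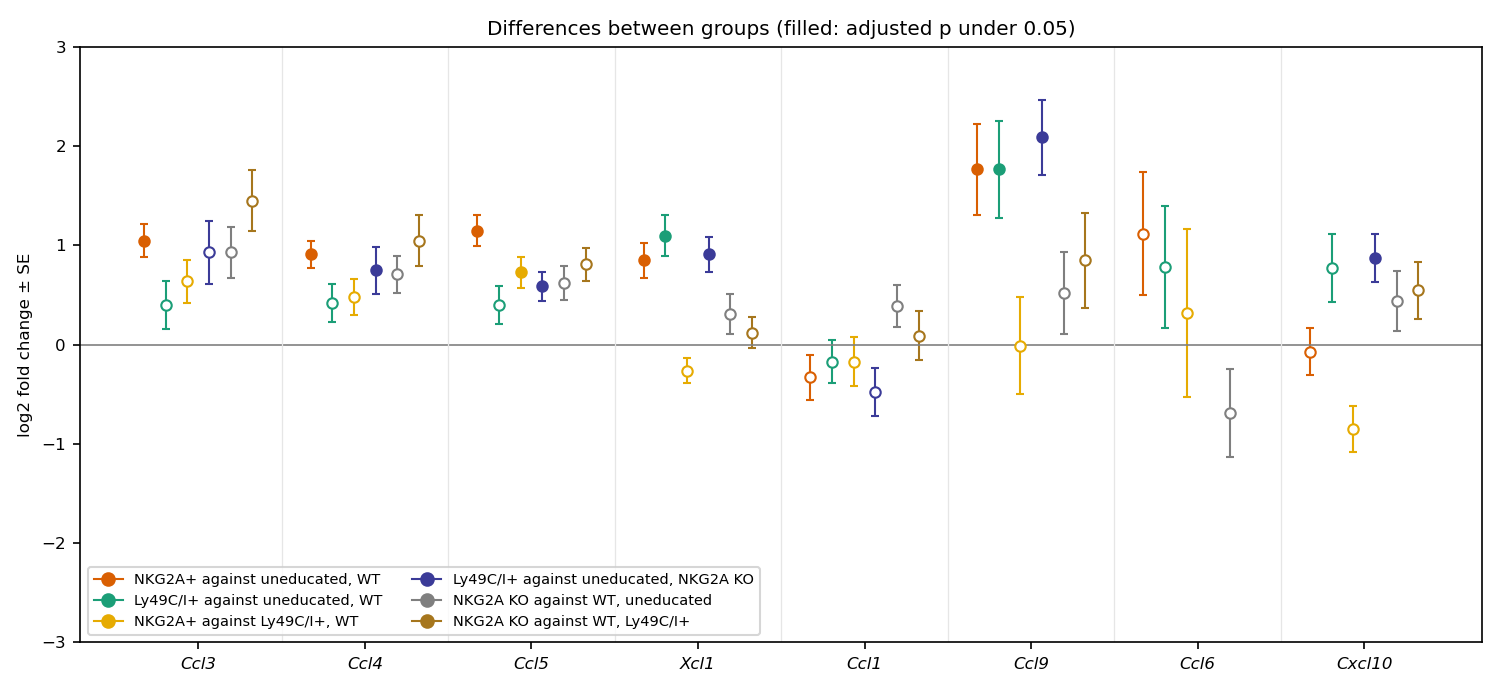
Log2 fold change with SE (y axis) of each chemokine gene (x axis) in 6 comparisons of groups (colours), with filled points for an adjusted p under 0.05. Ccl3, Ccl4 and Ccl5 lie above 0 in all 6 comparisons, and Ccl1 passes the threshold in none. Ccl6 is not drawn in the comparisons where it was below the CPM threshold.

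Between genotypes, Ccl3, Ccl4 and Ccl5 had the smallest unadjusted p-values of the 8 genes in both gates, yet none passed the adjusted threshold. In uneducated cells 0 of 9288 genes tested passed (0%), and DESeq2 and edgeR's likelihood ratio test each called 1. Unadjusted p was under 0.05 for 3 of the 8 genes, Ccl3 (0.93, SE 0.258), Ccl4 (0.71, SE 0.186) and Ccl5 (0.62, SE 0.171), as for 619 genes or 6.66% of all. Each of the 3 had an adjusted p of 0.507. Ccl3 means were 295 ± 159 CPM (SD, n = 8) in KO and 156 ± 49.5 CPM (SD, n = 9) in WT uneducated cells, and the ranges overlapped widely.

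In Ly49C/I+ cells 0 of 9344 genes passed (0%), 1001 genes (10.7%) had an unadjusted p under 0.05, and DESeq2 called 118 genes and the likelihood ratio test 62. The same 3 of the 7 chemokine genes tested were among those with an unadjusted p under 0.05. Ccl3 differed by 1.45 (SE 0.309, adjusted p = 0.139), with 567 ± 245 CPM (SD, n = 5) in KO and 208 ± 97.6 CPM (SD, n = 6) in WT cells. Ccl4 differed by 1.05 (SE 0.254, adjusted p = 0.172), and Ccl5 by 0.81 (SE 0.164, adjusted p = 0.136). The calls turned on the test used, because DESeq2 gave adjusted p-values of 0.0253, 0.047 and 0.00845 and the likelihood ratio test 0.00269, 0.0125 and 0.00242 for the 3 genes. They also turned on 1 library: without WT Ly49C/I+ library 1, the quasi-likelihood test called Ccl3 (1.71, adjusted p = 0.0294) and Ccl5 (0.94, adjusted p = 0.025). Both genotype comparisons share their libraries with comparisons above.

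The difference between the Ly49C/I+ effect in KO mice and that in WT mice was tested directly. No gene of 9322 passed (0%), DESeq2 called 1 and the likelihood ratio test 0, and 414 genes (4.44%) had an unadjusted p under 0.05, none of them among the 7 chemokine genes tested. The difference was 0.51 (SE 0.433) for Ccl3, 0.32 (SE 0.33) for Ccl4 and 0.18 (SE 0.266) for Ccl5, each with an adjusted p of 0.998. It was -0.20 (SE 0.301) for Xcl1 and 0.09 (SE 0.471) for Cxcl10. Errors of this size do not show that the effects were equal.

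Xcl1 encodes lymphotactin, the ligand of XCR1 on cross-presenting dendritic cells. It rose in both educated populations of WT mice with no overlap with uneducated libraries, at 304 to 864 CPM (median 746) in uneducated, 867 to 1560 CPM (median 1201) in NKG2A+ and 1104 to 1898 CPM (median 1410) in Ly49C/I+ libraries. The gap to the NKG2A+ libraries was narrow, from 864 to 867 CPM. NKG2A+ cells differed by 0.85 (SE 0.178, adjusted p = 0.00249). For Ly49C/I+ cells the value was 1.10 (SE 0.203, adjusted p = 0.00385). In the latter comparison 2 of the 8 genes rose (Xcl1 and Ccl9), where 4.25% of 9292 genes did, and for 1 of them, Xcl1, the groups did not overlap, as for 1.27% of genes. The 3 lowest values belonged to WT uneducated libraries 1, 2 and 3 (377, 496 and 304 CPM).

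In KO mice Xcl1 was 2311, 1368, 1483, 1381 and 1258 CPM in Ly49C/I+ libraries 4 to 8 and 408 to 1128 CPM (median 799) in uneducated libraries, again without overlap. The rise was 0.91 (SE 0.179, adjusted p = 0.00302). Unlike the means of Ccl3, Ccl4 and Ccl5, that of Xcl1 was higher in WT Ly49C/I+ (1433 ± 276 CPM, SD, n = 6) than in WT NKG2A+ cells (1193 ± 229 CPM, SD, n = 9), though that difference did not pass (-0.26, SE 0.126, adjusted p = 0.273). Between genotypes the adjusted p of Xcl1 was 0.827 in uneducated and 0.832 in Ly49C/I+ cells.

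Taking the 8 genes together, their summed level was 2771 ± 744 CPM (SD, n = 9) in WT uneducated, 5410 ± 833 CPM (n = 9) in WT NKG2A+, 4277 ± 702 CPM (n = 6) in WT Ly49C/I+, 4137 ± 1138 CPM (n = 8) in KO uneducated and 6960 ± 1617 CPM (n = 5) in KO Ly49C/I+ libraries. Xcl1 made up 34.5% ± 9.13 (SD) of this sum in WT Ly49C/I+ libraries (21.7% to 42.9%). Its share was 22.1% ± 2.94 in WT NKG2A+ (19.2% to 28.9%) and 22.4% ± 2.6 in KO Ly49C/I+ libraries (19.9% to 25.7%). Ccl5 made up 44.8% ± 5.5 in WT NKG2A+ and 33.7% ± 4.6 in WT Ly49C/I+ libraries. In WT Ly49C/I+ libraries the mean share of Xcl1 thus exceeded that of Ccl5, and these shares were not tested.

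Cxcl10 encodes an interferon-inducible ligand of CXCR3. In WT mice it gave 40 to 182 CPM (median 81.4) in uneducated, 67.8 to 122 CPM (median 90.4) in NKG2A+ and 65 to 322 CPM (median 156) in Ly49C/I+ libraries. NKG2A+ libraries were close to one another, while the Ly49C/I+ libraries spread widely, most of them above the NKG2A+ range. The value did not differ between NKG2A+ and uneducated cells past the threshold (-0.07, SE 0.238, adjusted p = 0.89), nor between Ly49C/I+ and uneducated cells (0.77, SE 0.343, adjusted p = 0.173). NKG2A+ against Ly49C/I+ cells gave -0.85 (SE 0.23, adjusted p = 0.0555). That value passed with the likelihood ratio test (adjusted p = 0.0128), with DESeq2 (0.00625) and without WT Ly49C/I+ library 1 (-1.01, adjusted p = 0.00612) or 2 (-0.95, adjusted p = 0.0481).

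In KO mice Cxcl10 was 296, 246, 231, 234 and 218 CPM in Ly49C/I+ libraries 4 to 8, all above the 37.9 to 185 CPM (median 150) of uneducated libraries. It rose by 0.87 on the log2 scale (SE 0.242, adjusted p = 0.0217). The adjusted p was 0.0605 with no filter on low counts, 0.0505 with all 5 groups in 1 fit and 0.0632 without KO Ly49C/I+ library 4.

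Ccl1, a ligand of CCR8, had lower means in educated than in uneducated cells in all 3 comparisons of the kind, though none passed the threshold. It gave 28.1 to 80.2 CPM (median 42.3) in WT uneducated, 15.7 to 57.9 CPM (median 35.6) in WT NKG2A+, 31.3 to 67.2 CPM (median 39.9) in WT Ly49C/I+, 41.5 to 103 CPM (median 53.4) in KO uneducated and 27 to 68.7 CPM (median 44.4) in KO Ly49C/I+ libraries. All ranges overlapped. Against uneducated cells the difference was -0.33 for NKG2A+ (SE 0.229, adjusted p = 0.369), -0.17 for WT Ly49C/I+ (SE 0.22, adjusted p = 0.683) and -0.48 for KO Ly49C/I+ cells (SE 0.241, adjusted p = 0.185).

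Ccl9 and Ccl6 encode CCR1 ligands of the CC family that myeloid cells are known to make. Against uneducated cells, Ccl9 had the largest log2 rises of the 8 genes, from low levels. It gave 1.21 to 11.6 CPM (median 5.47) in WT uneducated, 1.71 to 39.4 CPM (median 17.2) in WT NKG2A+ and 3.93 to 44 CPM (median 14.5) in WT Ly49C/I+ libraries, with overlap through NKG2A+ libraries 8 and 9 and Ly49C/I+ library 8. The NKG2A+ rise was 1.77 (SE 0.458, adjusted p = 0.0111). The Ly49C/I+ rise was 1.77 as well (SE 0.489, adjusted p = 0.0299). In KO mice Ccl9 was 36.5, 27.3, 55.8, 34.8 and 11.9 CPM in Ly49C/I+ libraries 4 to 8 and 3.05 to 12.6 CPM (median 8.31) in uneducated libraries, and it rose by 2.09 (SE 0.38, adjusted p = 0.00198). Only Ly49C/I+ library 8 lay within the range of the KO uneducated libraries.

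Ccl6 passed no comparison. It gave 1.14 to 9.86 CPM (median 6.79) in WT uneducated, 0 to 35.2 CPM (median 11.3) in WT NKG2A+ and 1.55 to 35.9 CPM (median 3.25) in WT Ly49C/I+ libraries. In KO mice the ranges were 0.949 to 7.91 CPM (median 3.02) in uneducated and 0 to 8.42 CPM (median 2.27) in Ly49C/I+ libraries. NKG2A+ library 6 and KO Ly49C/I+ library 5 had 0 reads, which allows up to 0.183 and 0.175 CPM (3 reads, counting error only). NKG2A+ cells differed from uneducated cells by 1.12 (SE 0.616, adjusted p = 0.248). Ly49C/I+ cells differed by 0.78 (SE 0.616, adjusted p = 0.475), and by -0.14 without WT Ly49C/I+ library 1. Both comparisons with KO Ly49C/I+ cells left Ccl6 below the CPM threshold, and two-sided exact permutation tests on log2(CPM + 1) gave a difference of -0.334 from KO uneducated cells (p = 0.569, n = 5 and 8) and of -1.05 from WT Ly49C/I+ cells (p = 0.255, n = 5 and 6).

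Macrophage and monocyte markers, a list of 10 genes led by Lyz2, varied between libraries of one group. Their sum ranged from 34.4 to 153 CPM in WT uneducated, 12.1 to 334 CPM in WT NKG2A+, 20.2 to 421 CPM in WT Ly49C/I+, 32.4 to 95.6 CPM in KO uneducated and 8 to 150 CPM in KO Ly49C/I+ libraries. Between 6 and 9 of the 10 markers reached 5 CPM in some library of each group, and Fcgr1 had 0 reads in 20 libraries and Adgre1 in 16. The sum was highest in WT Ly49C/I+ libraries 1 (421 CPM) and 2 (259 CPM) and WT NKG2A+ libraries 1 (334 CPM) and 4 (269 CPM). Ccl6 was 35.9, 17.7, 35.2 and 28.7 CPM in these 4 libraries, which were its 2 highest values in each group, and Ccl9 was 44, 13.6, 27.7 and 39.4 CPM. Stroma markers, nearly all of them reads on Prl8a2, were also high in NKG2A+ libraries 1, 3 and 4 (498, 284 and 898 CPM).

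Without these 4 libraries, a choice made after the values were seen, the Ccl9 difference was 1.39 for NKG2A+ (adjusted p = 0.0613) and 1.30 for WT Ly49C/I+ cells (adjusted p = 0.158), so both calls were lost. Ccl3, Ccl4, Ccl5 and Xcl1 still rose in NKG2A+ cells, and Xcl1 in Ly49C/I+ cells. KO Ly49C/I+ libraries 4, 5 and 7 had Ccl9 at 27.3 to 36.5 CPM with summed macrophage markers of 8, 14.1 and 34.4 CPM, below or within the lower part of the range of KO uneducated libraries. Library 6 had the highest Ccl9 of all 37 libraries (55.8 CPM) with a marker sum of 150 CPM, above every KO uneducated library, and library 8 had 11.9 CPM with a sum of 44.5 CPM. The part of these markers in the Ccl9 differences was not tested. The WT Ly49C/I+ call of Ccl9 was also lost without any 1 of WT uneducated libraries 1, 2 and 8 (adjusted p = 0.0505, 0.0557 and 0.0541) or of WT Ly49C/I+ libraries 1 and 5 (0.109 and 0.0541), and with no filter on low counts (0.078).

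**Figure D3:**
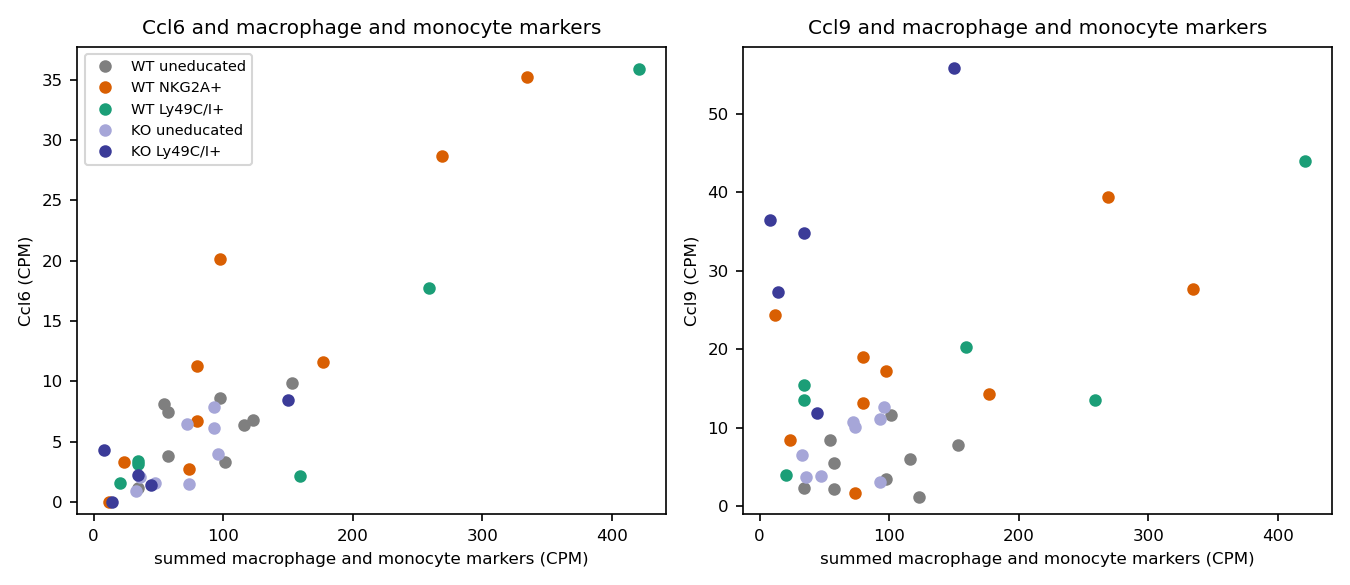
Ccl6 (left, y axis, CPM) and Ccl9 (right, y axis, CPM) against the summed level of 10 macrophage and monocyte markers (x axis, CPM), with 1 point per library coloured by group. Of the 4 libraries above 250 CPM on the x axis, 3 hold the highest Ccl6 values, whereas the highest Ccl9 value (55.8 CPM) lies in the KO Ly49C/I+ library with 150 CPM of these markers and 3 other libraries of that group have 27.3 to 36.5 CPM at sums of 8 to 34.4 CPM.

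The relations between the genes were then examined among libraries of one group, by deviations of log2(CPM + 1) from the group mean over 37 libraries. Of 21 pairs among 7 genes (Ccl6 was too low), 7 had adjusted permutation p-values under 0.05 for both Pearson's r and Spearman's rho, all with r above 0. Ccl3 and Ccl4 had r = 0.87 and rho = 0.87 (adjusted permutation p = 1.05e-04 for each, from the smallest p that 100000 resamples can give, 1e-05). Ccl3 and Ccl5 had r = 0.78 and rho = 0.80, and Ccl4 and Ccl5 r = 0.68 and rho = 0.68. Without the 2 libraries farthest from the median of the first gene, r stayed at 0.85, 0.78 and 0.70. Ccl3, Ccl4 and Ccl5 thus moved together from library to library within groups.

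Xcl1 followed them less closely, with r = 0.45 to Ccl3 and 0.49 to Ccl4 (adjusted permutation p = 0.022 and 0.00693). Its relation to Cxcl10 was r = 0.67 and rho = 0.53 (adjusted permutation p = 0.0011 and 0.00663), and r = 0.51 without WT uneducated library 3 and KO uneducated library 3, the 2 farthest. Ccl1 was related to Ccl4 (r = 0.51, rho = 0.51, adjusted permutation p = 0.0055 and 0.00663). Ccl9 was related to none of the others past the threshold, with r between -0.34 and 0.15. Levels of 1 library share its depth, its RNA quality and its cell mixture.

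**Figure D4:**
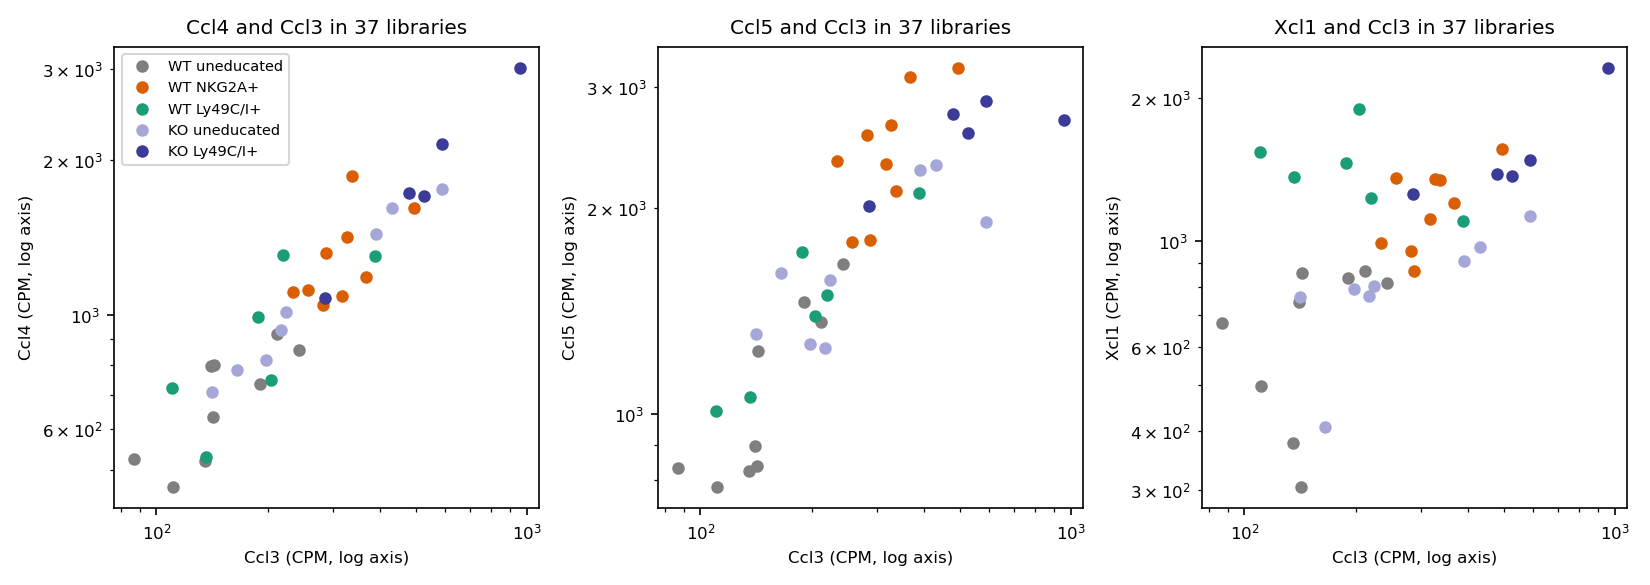
Levels of Ccl4, Ccl5 and Xcl1 (y axes, CPM, log scale) against Ccl3 (x axes, CPM, log scale) in all 37 libraries, coloured by group. Ccl4 and Ccl5 rise with Ccl3, though Ccl5 at similar Ccl3 differs between groups, whereas most WT Ly49C/I+ libraries hold high Xcl1 at low Ccl3.

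Among 9287 genes, those with the most similar pattern were named by Spearman's rho over the 37 libraries, as a description. Closest to Ccl3 were Ccl4 (0.95), Klf2 (0.93), a transcription factor of lymphocyte trafficking, and Arl4d (0.91), and closest to Ccl4 were Ccl3 (0.95), Arl4d (0.89) and Ifng (0.89), which encodes interferon-gamma. Ccl5 was most like Hsd11b1, Klf2 and Arl4d (0.93 each). Within groups Klf2 was nearest to Ccl3 (0.89), while Emp3 (0.91) and Nkg7 (0.88), which encodes a cytotoxic granule protein, were nearest to Ccl5, and Fam32a (0.75) joined Ccl3 and Arl4d beside Ccl4.

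Xcl1 stood nearest to H2-Q5 (0.92), a class I gene with close copies, to Ctsw (0.91), the protease cathepsin W of cytotoxic lymphocytes, and to Trbj1-2 (0.90). Within groups its nearest genes were Ctsw (0.80), Ltb (0.79) and Tnfrsf18 (0.79). For Cxcl10 they were Dusp2 (0.84), Tor3a (0.76) and Rnf114 (0.75), and within groups Nrarp (0.74), Btg2 (0.74) and Sesn3 (0.73). Ccl9 had Ifi27l2a (0.78), Gsap (0.73) and Tnfaip3 (0.73), and within groups Slc52a2 (0.61), Phykpl (0.60) and Vps29 (0.60). Ccl1 had no near match, with Marc2 (0.59), Acp1 (0.56) and Fam122a (0.55) first, and Hpcal1 (0.68), Josd2 (0.60) and Wbp4 (0.56) within groups.

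Other chemokine ligands were almost unseen. Of 30 further ligand genes, 21 stayed under 5 CPM in every library, among them Cxcl9 and Cxcl11, which encode the other CXCR3 ligands. At most 1 of the 30 reached the CPM threshold in any comparison and none passed. Cxcl2, a neutrophil attractant, had means of 11.3 ± 11.6 CPM in NKG2A+ and 7.17 ± 3.4 CPM in uneducated cells of WT mice (SD, n = 9 each). Ccl22, which encodes a CCR4 ligand, averaged 7.92 ± 5.13 CPM in 9 WT uneducated and 2.12 ± 2.68 CPM in 6 WT Ly49C/I+ libraries (SD) (-1.91, SE 1.02, adjusted p = 0.258). Its mean was 0.321 CPM in WT NKG2A+, 7.49 ± 11 CPM (SD, n = 8) in KO uneducated and 0 CPM in KO Ly49C/I+ libraries. In NKG2A+ and KO Ly49C/I+ against uneducated cells it was below the CPM threshold and not tested.

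Of 23 chemokine receptor genes, 8 were tested in NKG2A+ against uneducated cells, and 6 of these rose (background 7.47%) while none fell (background 7.56%), with a median of 0.82. Among them were Cxcr6 (2.86, SE 0.38, adjusted p = 2.68e-05), Cxcr4 (1.44), Cx3cr1 (1.27), Cxcr3 (1.12) and Ccrl2 (0.52), whose call was lost in 11 of 28 alternatives. Cxcr6, the receptor for CXCL16 on tissue-resident lymphocytes, ranged from 23.5 to 197 CPM (median 64.2) in NKG2A+ and from 4.84 to 25.4 CPM (median 11.5) in uneducated libraries. Cxcr3, the receptor of CXCL10, was 150 ± 39 CPM against 69 ± 25.2 CPM (SD, n = 9 each). Xcr1, Ccr1 and Ccr8, the receptors of XCL1, of CCL6 and CCL9, and of CCL1, had group means of at most 3.28, 1.95 and 10.8 CPM. They were below the CPM threshold and not tested here. Ccr8 nonetheless ranged from 4.13 to 21.3 CPM in NKG2A+ and from 0 to 2.86 CPM in uneducated libraries of WT mice.

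In WT Ly49C/I+ against uneducated cells 1 of 8 receptors rose (background 4.25%), Ccrl2 (0.63, SE 0.187, adjusted p = 0.0426), a call that was lost in 13 of 24 alternatives. NKG2A+ cells exceeded Ly49C/I+ cells in 3 of 9 receptors tested (background 2.73% in either direction), Cxcr6 (2.14, SE 0.446, adjusted p = 0.0146), Cxcr4 (0.76, adjusted p = 0.0369) and Cxcr3 (0.75, adjusted p = 0.0378). The Cxcr4 and Cxcr3 calls were lost in 14 and 13 of 24 alternatives, and that of Cxcr6 in 1. In KO mice 2 of 8 rose (background 7.34%), Cx3cr1 (1.22) and Ccrl2 (0.58), and Ccr7, the receptor that leads cells to lymph nodes, fell by 2.16 on the log2 scale (SE 0.331, adjusted p = 0.000642), where 8.99% of genes fell. In this comparison the 3 were named after their values were seen.

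**Figure D5:**
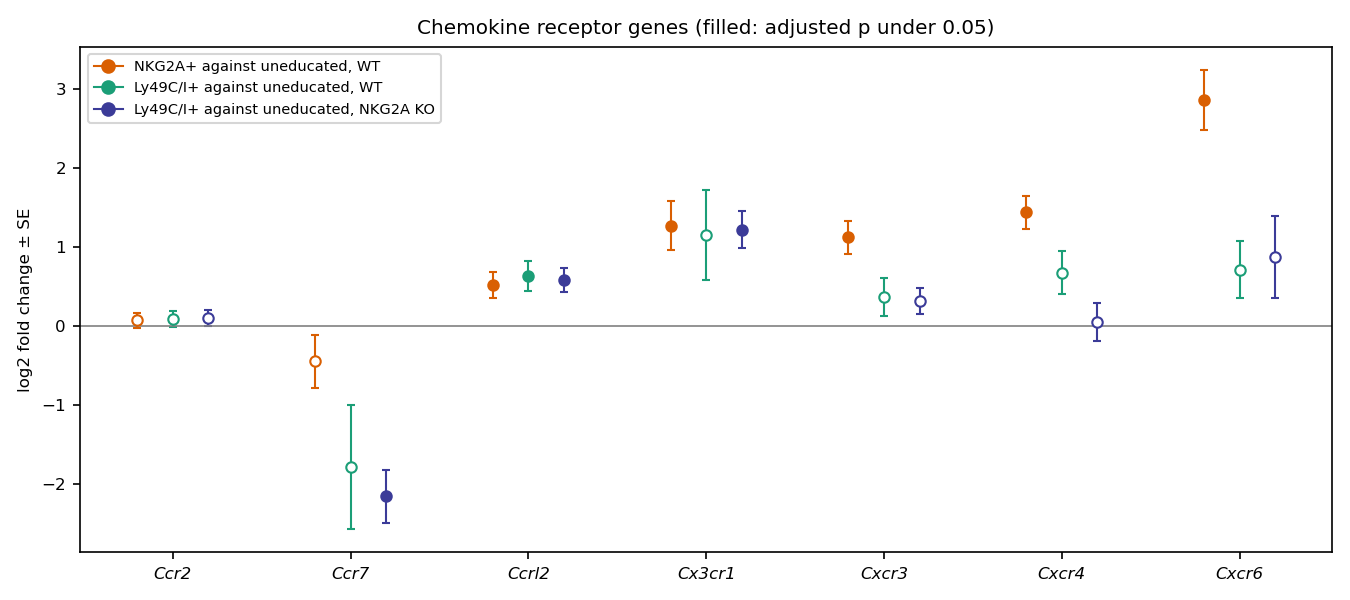
Log2 fold change with SE (y axis) of 7 of the chemokine receptor genes tested (x axis) for NKG2A+ and Ly49C/I+ against uneducated cells of WT mice and Ly49C/I+ against uneducated cells of NKG2A KO mice (colours), with filled points for an adjusted p under 0.05. Cxcr6 in NKG2A+ cells stands highest at 2.86, and Ccr7 in KO Ly49C/I+ cells lowest at -2.16.

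Immediate early genes are turned on fast by receptor signals and by tissue handling. Of 20 on the list 19 were tested in NKG2A+ against uneducated cells, where 6 rose (background 7.47%) and none fell (background 7.56%), with a median log2 fold change of 0.31 against 0.01 over all genes tested. These were Atf3 (0.64), Dusp1 (0.61), Tnfaip3 (0.55), Btg2 (0.46), Nr4a1 (0.45) and Ier2 (0.39). The Ier2 call was lost in 13 of 28 alternatives and that of Atf3 in 7. In WT Ly49C/I+ cells 4 of 19 rose (background 4.25%), Tnfaip3 (0.63), Junb (0.61), Dusp1 (0.58) and Ier2 (0.44), and between the educated populations none of 19 passed (background 2.73%). In KO Ly49C/I+ cells 5 of 19 rose (background 7.34%) and 1 fell (background 8.99%), with a median of 0.36 against 0.02 over all genes tested. Of these calls, named after their values were seen, Ier2 was lost in 12 and Btg2 in 4 of 21 alternatives. The part of these genes in the chemokine differences was not tested.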

How the data were processed

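Cells had been sorted from the pregnant uterus, total RNA extracted, and full-length cDNA amplified (SMART-Seq v4, Nextera XT) without molecular identifiers, so a limit taken from read counts covers no more than counting error. Per the labels and the study's methods, the authors trimmed reads with Trim Galore 0.5.0 and mapped them with STAR 2.7.1 to GRCm38. They deposited unnormalised read counts per Ensembl gene (53700 genes). How reads were counted is not stated in the sources used here. The 5 summary lines that name no gene, 18.9% to 23.6% of reads, entered neither library sizes nor tests.

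A gene was tested where its level reached 5 CPM in a share of 0.5 or more of the compared libraries, with the quasi-likelihood test of edgeR 4.0.16 (R 4.3.3) on TMM-scaled counts and only the groups compared. The SE is the log2 fold change divided by the square root of F. Pairs of genes were tested by permutation within groups (100000 resamples) and Ccl6 by exact permutation (scipy 1.17.1). Names and positions came from GENCODE M21 (52093 identifiers with a symbol). The fits were tested on simulated data. Alternatives comprised DESeq2 1.42.0, the likelihood ratio test of edgeR, RLE scaling, a lower and no filter, GC and length offsets, a replicate block, a fit of all 5 groups and left-out libraries. Leaving out libraries rich in macrophage markers was added after seeing the data.

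The members and lists were chosen with earlier results of these data known. Named genes were the 8 members, for each the 3 nearest genes by rho over all libraries and within groups, and from each list up to 6 genes past the threshold in each WT comparison. Titles and the second label line number some WT Ly49C/I+ libraries differently, and the latter was used. For WT uneducated library 5 that line repeats number 4, so its title number was used. Some items are not reported here.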

Additional observations from a re-analysis of the deposited data

Results flagged for a closer look

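Within each group the most extreme library of each of the 8 genes was compared with its nearest neighbour by Dixon's ratio (40 groups of values, of which chance marks about 1 in 20). In 2 of them, no more than that share, the highest library passed the critical value, so chance alone could give both. Xcl1 was 2311 CPM in KO Ly49C/I+ library 4, and the next value was 1483 CPM (ratio 0.787, critical value 0.71). Without this library the rise of Xcl1 in KO Ly49C/I+ cells was 0.73 on the log2 scale and still passed the threshold. Ccl1 was 67.2 CPM in WT Ly49C/I+ library 8, and the next value was 43.5 CPM (ratio 0.659, critical value 0.625).

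Levels in the NKG2A+ and Ly49C/I+ populations of WT mice differed by a direct test in 4 of the genes named. NKG2A+ cells exceeded Ly49C/I+ cells by 0.73 on the log2 scale in Ccl5, by 0.75 in Cxcr3, by 0.76 in Cxcr4 and by 2.14 in Cxcr6, each with an adjusted p under 0.05 in edgeR's quasi-likelihood test. The call was lost in 13 of 24 alternatives for Cxcr3, in 14 of 24 for Cxcr4 and in 1 of 24 for Cxcr6, and for Ccl5 without a filter (adjusted p = 0.0529).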

How the results depend on the processing

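Ccl3, Ccl4, Ccl5 and Xcl1 passed in NKG2A+ against uneducated cells under all 28 alternatives, and Xcl1 in WT Ly49C/I+ against uneducated cells under all 24. Where a value moved, the cause was not tested. In WT Ly49C/I+ against uneducated cells (864 genes, 2 of the 8 chemokine genes) no filter gave 451 genes and 1 chemokine gene, all 5 groups in 1 fit 1528 genes, and leaving out the libraries rich in macrophage markers 531 and 1. In NKG2A+ against Ly49C/I+ cells (254 and 1) the likelihood ratio test gave 442 and 2, DESeq2 558 and 2, no filter 104 and 0, GC and length offsets 125 genes, and leaving out those libraries 137 and 3. In KO Ly49C/I+ against KO uneducated cells (1519 and 5) no filter gave 889 and 3. Between genotypes, uneducated cells (0 genes) gave 1 gene by the likelihood ratio test and 1 by DESeq2. Ly49C/I+ cells (0 and 0) gave 62 and 3 by the likelihood ratio test, 118 and 3 by DESeq2, 18 and 1 with all 5 groups in 1 fit, and 3 genes without the libraries rich in macrophage markers. The difference of Ly49C/I+ effects (0 genes) gave 1 by DESeq2 and 1 without those libraries.

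With each library left out in turn, the counts of genes and chemokine genes ranged from 461 (without WT Ly49C/I+ library 7) to 1234 (without WT uneducated library 5) and from 1 to 2 in WT Ly49C/I+ against uneducated cells. In NKG2A+ against Ly49C/I+ cells they ranged from 147 (without WT Ly49C/I+ library 7) to 306 and from 1 to 3. In KO mice they ranged from 967 (without KO Ly49C/I+ library 4) to 1763 and from 3 to 6, and between genotypes in Ly49C/I+ cells from 0 to 15 and from 0 to 2 (both highest without WT Ly49C/I+ library 1). Log2 values that crossed 0 ranged from -0.17 to 0.10 for Cxcl10 in NKG2A+ against uneducated cells and from -0.14 to 1.02 for Ccl6 in WT Ly49C/I+ against uneducated cells. In NKG2A+ against Ly49C/I+ cells they ranged from -0.26 to 0.01 for Ccl1, from -0.23 to 0.46 for Ccl9 and from -0.01 to 1.25 for Ccl6. Between genotypes in Ly49C/I+ cells they ranged from -0.07 to 0.21 for Xcl1 and from -0.12 to 0.26 for Ccl1, and for the difference of effects from -0.07 to 0.40 for Cxcl10. Ccl9 in NKG2A+ against Ly49C/I+ cells was 0.01 with no filter, 0.00 with a filter at 1 CPM and 0.08 without the libraries rich in macrophage markers, where Ccl1 between genotypes was -0.01 and Cxcl10 in the difference of effects -0.23. None of these passed the threshold.

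The replicate numbers were not taken to pair libraries, because the labels tie them to nothing and in no comparison were all same-numbered libraries correlated above 0.1 in their deviations from group means. In WT mice the correlations ran from -0.03 to 0.24 for NKG2A+ and uneducated, 0.07 to 0.19 for Ly49C/I+ and uneducated, and 0.03 to 0.11 for NKG2A+ and Ly49C/I+ libraries, with 4 of 9, 5 of 6 and 6 of 6 pairs best matched to each other, a hint of shared origin from the data and not from the design. In KO mice they ran from 0.02 to 0.27, with 3 of 5 pairs best matched. Between genotypes, where same-numbered libraries cannot share an animal, 1 of 8 pairs in uneducated and 1 of 4 in Ly49C/I+ cells were best matched. The correlations there ran from -0.25 to 0.27 and from -0.04 to 0.04. The main fits do not take such sharing into account. With the replicate block, 748 genes passed in KO Ly49C/I+ against uneducated cells, Ccl3 passed there (0.62, adjusted p = 0.0148), Cxcl10 passed in WT Ly49C/I+ against uneducated cells (0.77, adjusted p = 0.0136) and Ccl9 did not (1.76, adjusted p = 0.0725). The block also turned the sign of Cxcl10 in NKG2A+ against uneducated cells (0.10), Ccl6 in WT Ly49C/I+ cells (-0.17), Ccl1 between genotypes in Ly49C/I+ cells (-0.20), and Ccl5 (-0.01) and Cxcl10 (-0.09) in the difference of effects. Below the CPM threshold, Ccl6 has no value under several alternatives. At 5 to 9 libraries per group and these depths, Ccl6 and Ccl9 rest on few reads in several libraries.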
